A study of Homo sapiens with 6 samples.

Results

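The classical SR splicing factors, the genes SRSF1 to SRSF7 and SRSF9 to SRSF11, were followed in PLC/PRF/5 cells, an established human hepatocellular carcinoma line, after SLU7 was knocked down. Members were chosen by gene name: a transcript cluster (the probe sets that together cover a gene) was taken where the array annotation gave a single symbol that is the current or an older name of a member, and where a gene had several such clusters the brightest over the 6 arrays was used. All 10 members were found, out of 15949 named genes. Of the older names, SFRS10 belongs to TRA2B and was not taken for SRSF10, whose clusters carry the name FUSIP1. Of the 6 arrays, 3 held RNA from cells transfected with siRNAs against SLU7 (siSLU7) and 3 held RNA from cells transfected with an irrelevant siRNA (siGL, the control), all taken 48 h after lipid transfection. The labels number the control arrays siGL1, siGL2 and siGL3 and the knockdown arrays likewise, while the design text names siGL2 alone as the control siRNA. The numbers are taken here as replicate numbers. If they name different siRNAs, the spread within a group, that of control replicate 2 included, also holds differences between siRNAs, which cannot be told apart here. Each array gave 1 log2 value for each of 18708 transcript clusters on the Affymetrix Human Exon 1.0 ST platform.

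SR proteins carry an RNA recognition motif and a tail rich in arginine and serine. They bind enhancer sequences in exons and help the early spliceosome find splice sites, and several of them also escort spliced mRNA out of the nucleus. SRPK and CLK kinases phosphorylate the tail, transportin SR (TNPO3) carries the proteins into the nucleus, and many SR genes limit their own level by splicing in exons that mark the transcript for decay. SLU7 acts later, in the second catalytic step of splicing, where it bears on the choice of the 3′ splice site. The values used here give 1 level per gene, so a decay-prone and a productive transcript of the same SR gene were not told apart.

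SLU7 itself read 5.84, 5.58 and 6.21 log2 units on the siSLU7 arrays, against 7.89, 7.01 and 7.24 on the control arrays. The groups did not overlap, and SLU7 stood at 35.2% of its control level, a difference of -1.51 ± 0.31 log2 units (SE) with a limma adjusted p of 0.0783. The medians of the 6 arrays lay between 6.61 and 6.63 log2 units and the lower quartiles between 4.86 and 4.98. Of the 11 hepatocyte markers measured, 6 lay above the median on every array, among them APOA1, TF and the keratins KRT8 and KRT18. Albumin (ALB) read 2.84 to 4.52 log2 units, below the lower quartile of every array. AFP (4.84 to 6.50), SERPINA1 (4.06 to 5.95) and TTR (5.49 to 6.44) lay below the median on every array. The hepatocyte markers averaged 8.15 to 8.32 log2 units on the siSLU7 arrays and 8.67 to 8.84 on the control arrays, and none was called. Of 4 measured blood markers none lay above the median on every array. Only 1 lay below the lower quartile on every array, PTPRC of white blood cells, at most 2.40. HBB read 5.64 to 6.41, above the lower quartile on every array. The blood list averaged 4.42 to 4.53 on the siSLU7 arrays and 4.27 to 4.49 on the control arrays. The 4 endothelial markers averaged 6.04 to 6.56 on the siSLU7 arrays and 6.35 to 6.57 on the control arrays, none of them below the lower quartile or above the median on every array. Of the 6 fibroblast markers, which averaged 4.69 to 5.21 with siSLU7 and 4.86 to 5.03 with control siRNA, 3 lay below the lower quartile on every array and PDGFRB lay above the median on every array (8.09 to 8.48). The part of these marker levels in the results was not tested. Array siSLU7 1 and array control 2 stood apart from the other 4 on the first principal component, which held 36.6% of the variance, so differences are also given for that pair alone (1 array minus 1 array, hence without an error) and for the remaining 4 arrays. No label says that replicates are separate cultures. The p-values therefore reflect only how far these arrays spread, possibly for technical reasons, and the number of arrays limits the precision.

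None of the 10 SR genes passed the limma test over all transcript clusters (adjusted p 0.258 to 0.974), where 0.433% of all clusters were called. SRSF11, SRSF5 and SRSF10 were higher on every siSLU7 array than on every control array, by 1.35, 0.87 and 0.74 log2 units. SRSF6 and SRSF2 were lower on every siSLU7 array, by 0.35 and 0.47 log2 units, the gap of SRSF2 being 0.003. With quantile normalization or median centring of the arrays, both chosen after seeing the data for this count, the SRSF2 groups overlapped and those of the other 4 genes still lay apart. The groups thus did not overlap for 5 of 10 members, 3 higher and 2 lower, while 18.9% of all clusters had groups without overlap (9.64% higher and 9.21% lower). At an unadjusted limma p under 0.05 there were 3 members, all higher (SRSF5, SRSF10 and SRSF11), against 13.1% of all clusters in either direction and 6.55% higher. By sign the list as a whole did not lean either way: 5 members had a positive and 5 a negative difference, and 50.5% of all clusters were positive. The median difference was -0.015 log2 units over the members and 0.004 over all clusters. The mean over the members was higher, 0.178, with differences from -0.47 (SRSF2) to 1.35 (SRSF11).

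The promoters of the members that lay apart between the groups and had a promoter window (RefSeq, GRCh38.p14) are shown. The upstream DNA of the higher genes can thus be set beside that of the lower SRSF6. Windows were found for 9 of the 10 members. The missing one was SRSF2, the other lower member that lay apart. The 4 below are the 250 bases before the annotated start, read 5′ to 3′ on the strand of the gene. For SRSF11 the outermost start was used. Capitals mark matches, on either strand, to any of 6 motifs. These were the CCAAT box, the GC box written GGGCGG, the core of ETS factor sites written CCGGAAGT, the full cAMP response element written TGACGTCA, the TATA box written TATAAA, and the run TCTCGCG, in which a palindrome on both strands gives overlapping matches.
SRSF11 (chr1:70205446-70205695, + strand): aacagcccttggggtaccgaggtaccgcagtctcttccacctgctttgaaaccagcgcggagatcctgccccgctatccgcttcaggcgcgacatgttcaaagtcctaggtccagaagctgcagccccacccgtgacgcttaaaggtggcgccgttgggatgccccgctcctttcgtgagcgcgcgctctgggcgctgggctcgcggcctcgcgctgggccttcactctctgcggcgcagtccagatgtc
SRSF5 (chr14:69766892-69767141, + strand): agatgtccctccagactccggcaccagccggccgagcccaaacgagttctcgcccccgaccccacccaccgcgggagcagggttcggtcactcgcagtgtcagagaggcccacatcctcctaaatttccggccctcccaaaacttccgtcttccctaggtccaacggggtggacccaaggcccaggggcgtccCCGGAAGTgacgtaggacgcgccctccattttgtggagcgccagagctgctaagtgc
SRSF10 (chr1:23980328-23980577, - strand): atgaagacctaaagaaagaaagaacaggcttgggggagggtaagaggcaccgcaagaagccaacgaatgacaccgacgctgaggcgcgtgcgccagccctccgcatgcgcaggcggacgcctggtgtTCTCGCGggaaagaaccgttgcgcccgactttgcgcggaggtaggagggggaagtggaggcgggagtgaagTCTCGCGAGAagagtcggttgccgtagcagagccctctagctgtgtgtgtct
SRSF6 (chr20:43457646-43457895, + strand): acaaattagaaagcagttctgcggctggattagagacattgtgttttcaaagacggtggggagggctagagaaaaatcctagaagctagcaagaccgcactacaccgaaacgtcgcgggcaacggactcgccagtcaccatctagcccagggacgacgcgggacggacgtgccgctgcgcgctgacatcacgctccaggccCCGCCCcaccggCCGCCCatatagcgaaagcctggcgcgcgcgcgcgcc
In SRSF5 an ETS match began 57 bases before the start, and 3.39% of 34943 windows of this length held one. SRSF10 held the run TCTCGCG on one or the other strand 123, 52 and 49 bases before its start, the last 2 overlapping as a palindrome, and 2.92% of windows held this run. GC boxes lay 49 and 37 bases before the start of SRSF6, with 42.5% of windows holding at least 1. None of the 6 motifs was found in the SRSF11 window shown. A second annotated start of SRSF11 has its own window (chr1:70221130-70221379, + strand), not printed, with a TATA box match 206 bases before that start. In the 4 windows shown, neither the CCAAT box (32.0% of windows), the TATA box (10.8%) nor the cAMP response element (1.63%) was found. No motif was shared by 2 of the 4 windows. Members whose groups overlapped held some of the same motifs in windows not printed. SRSF4 held an ETS match 242 bases and a GC box 34 bases before its start, and SRSF7 held GC boxes. The ETS match and the GC box were thus not particular to the members that lay apart. The motifs were picked with the sequences in view, and a match is a description of the letters only.

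SRSF11 encodes a more distant SR protein that interacts with U2AF, the factor that marks the 3′ splice site. It had the widest difference among the members. Its values were 8.71, 9.60 and 9.66 log2 units on the siSLU7 arrays, against 8.60, 6.95 and 8.37 on the control arrays. Every siSLU7 array was above every control array, but the lowest siSLU7 array and the highest control array were only 0.110 log2 units apart. The means were 9.32 ± 0.53 with siSLU7 and 7.97 ± 0.90 with control siRNA (SD, n = 3 each), a 2.56-fold higher level (95% interval 1.21 to 5.38) with a limma adjusted p of 0.258. Control replicate 2 was the low array, and without it the difference was 0.84 log2 units. It was 1.76 in the pair that stood apart and 1.15 in the other 4, so SRSF11 was higher with siSLU7 in both. With the array split entered as a block, SRSF11 was the only member called (limma adjusted p = 0.0302), in a fit that called 4.19% of all clusters and whose block was read from these same arrays.

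SRSF5, which carries a pair of RNA recognition motifs and is known as an insulin-induced gene of regenerating liver in the rat, read 9.10, 9.76 and 9.66 log2 units on the siSLU7 arrays, against 8.74, 8.15 and 9.03 on the control arrays. The groups came within 0.069 log2 units of each other, with siSLU7 replicate 1 the low array of its group and control replicate 2 the low array of the other. In fold terms SRSF5 was 1.82 times its control level (95% interval 1.10 to 3.03), with a limma adjusted p of 0.289. Its difference was 0.95 in the pair and 0.82 in the other 4, the most even of the 3 higher members, and it was 0.62 to 1.07 when any 1 array was left out.

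SRSF10, an SR protein that turns into a splicing repressor when it loses its phosphates, read 7.87, 8.12 and 8.14 log2 units on the siSLU7 arrays, against 6.94, 7.44 and 7.54 on the control arrays. Here the gap between the groups was 0.328 log2 units, the widest among the members, and the siSLU7 arrays lay close together. The level was 1.67 times the control level (95% interval 1.09 to 2.54; limma adjusted p = 0.276), and the difference was 0.43 in the pair and 0.89 in the other 4. A second cluster of SRSF10 gave 7.96, 7.53 and 7.96 on the siSLU7 arrays, against 7.36, 7.22 and 6.99 on the control arrays. Those groups did not overlap either, and the difference was 0.63 ± 0.26 log2 units (SE, limma adjusted p = 0.347), close to the 0.74 ± 0.27 of the brighter cluster. The annotation gives both clusters the same gene name, and RefSeq lists 2 SRSF10 pseudogenes, so how far each cluster reads the gene itself was not tested.

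**Figure D1:**
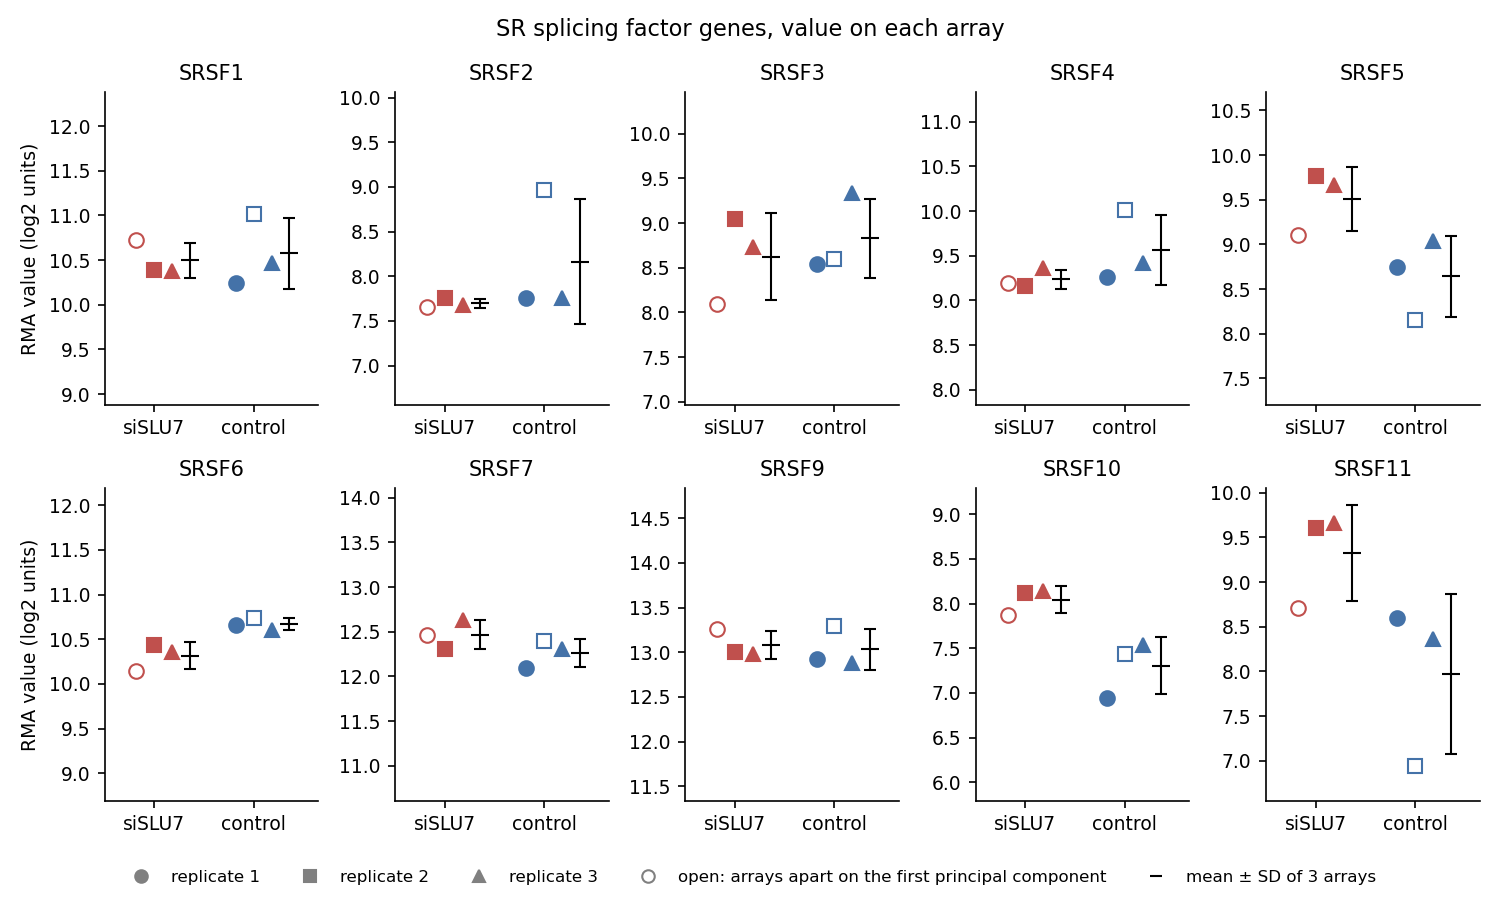
RMA value (log2 units, axis range of equal length in each panel) of the 10 SR genes on the 3 siSLU7 arrays (red, left) and the 3 control arrays (blue, right), with replicate number by symbol, the 2 arrays apart on the first principal component as open symbols and the mean ± SD of each group in black. SRSF5, SRSF10 and SRSF11 are higher on every siSLU7 array, and SRSF6 is lower. Control replicate 2 is the highest array for SRSF1, SRSF2, SRSF4, SRSF6 and SRSF9 and the lowest for SRSF5 and SRSF11.

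SRSF4 and SRSF6 carry a pair of RNA recognition motifs, as SRSF5, SRSF1 and SRSF9 do. SRSF6, known for its effect on exon choice in the tau gene MAPT, read 10.15, 10.44 and 10.36 log2 units on the siSLU7 arrays, against 10.66, 10.74 and 10.61 on the control arrays. The control arrays spread by only 0.065 log2 units (SD), the siSLU7 arrays all lay under them, and SRSF6 stood at 78.4% of the control level (limma adjusted p = 0.619). The difference was -0.59 in the pair and -0.23 in the other 4. SRSF4, the longest of the classical SR proteins, read 9.20, 9.16 and 9.36 on the siSLU7 arrays, against 9.26, 10.01 and 9.42 on the control arrays. Apart from control replicate 2 the SRSF4 arrays lay together, and the difference of -0.32 ± 0.28 log2 units (SE) was -0.10 without that array.

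SRSF2 is an SR protein of the nuclear speckle that stays in the nucleus and is mutated in myeloid neoplasms. It read 7.65, 7.76 and 7.67 log2 units on the siSLU7 arrays, against 7.76, 8.97 and 7.76 on the control arrays. Control replicate 2 was high and the other 5 arrays lay together, the siSLU7 arrays with an SD of 0.055 log2 units. The difference of -0.47 ± 0.36 log2 units (SE) was -0.07 without control replicate 2, -1.32 in the pair and -0.05 in the other 4.

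SRSF1, SRSF3, SRSF7 and SRSF9 had the smallest differences, and of these SRSF1, SRSF3 and SRSF7 are known to shuttle to the cytoplasm with mRNA. SRSF1, the prototype of the family and an oncoprotein in several tumours, read 10.72, 10.39 and 10.37 log2 units on the siSLU7 arrays, against 10.24, 11.02 and 10.47 on the control arrays. The groups overlapped, and the sign of the difference (-0.08 ± 0.29, SE) turned to 0.14 without control replicate 2. SRSF3, the smallest SR protein, whose loss in hepatocytes impairs liver maturation in mice, read 8.09, 9.04 and 8.74 on the siSLU7 arrays, against 8.54, 8.60 and 9.34 on the control arrays. The lowest array was siSLU7 replicate 1 and the highest control replicate 3, with a difference of -0.20 ± 0.34 (SE, 95% interval -0.99 to 0.59) that turned to 0.06 without siSLU7 replicate 1 and to 0.05 without control replicate 3.

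SRSF7, which carries a zinc knuckle beside its RNA recognition motif, read 12.46, 12.30 and 12.63 on the siSLU7 arrays, against 12.09, 12.40 and 12.30 on the control arrays. SRSF9, a close relative of SRSF1, read 13.26, 13.01 and 12.98 on the siSLU7 arrays, against 12.92, 13.30 and 12.88 on the control arrays. Both overlapped between the groups. The difference was 0.20 for SRSF7 (95% interval -0.35 to 0.76) and 0.05 for SRSF9 (95% interval -0.52 to 0.62). With 3 arrays a group, differences inside such unadjusted intervals remain possible. Wider ones could also miss the adjusted test, as SRSF11 did at 1.35 log2 units (limma adjusted p = 0.258). SRSF3 has 5 pseudogenes in RefSeq, the most of any member, and any signal they add to its cluster was not tested.

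**Figure D2:**
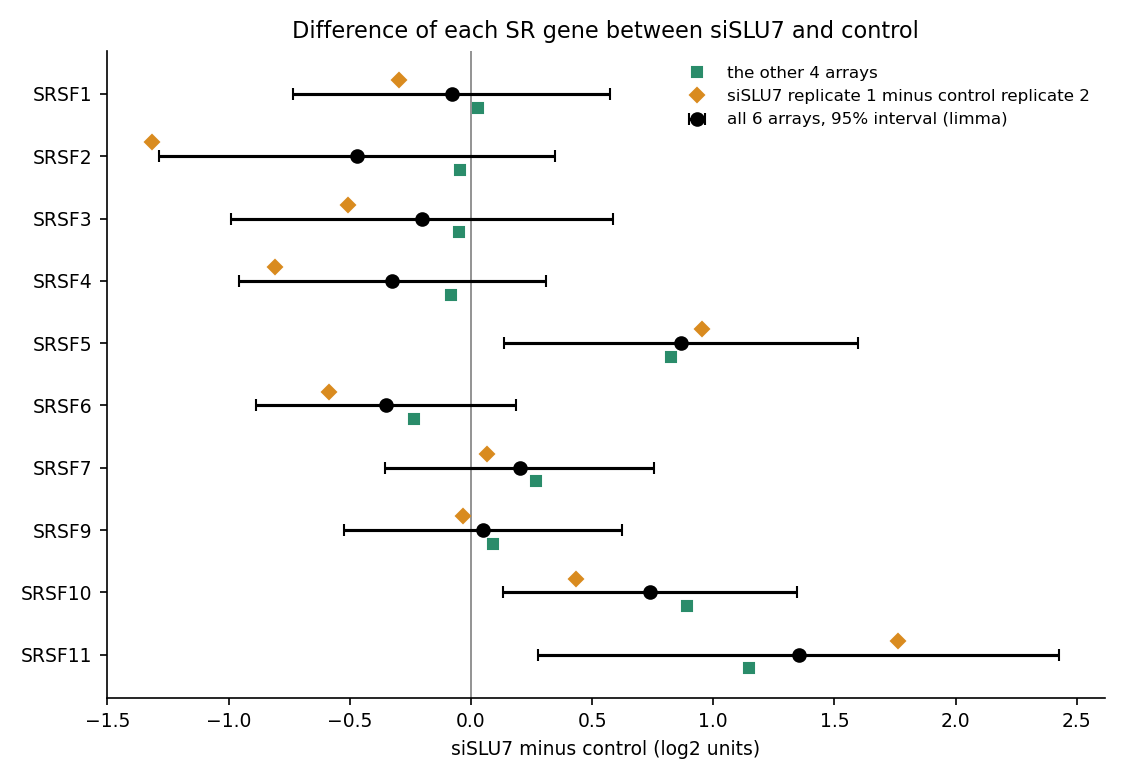
Difference of each SR gene (siSLU7 minus control, log2 units) over all 6 arrays with its 95% limma interval (black), within siSLU7 replicate 1 and control replicate 2 (orange diamonds) and within the other 4 arrays (green squares). The intervals of SRSF5, SRSF10 and SRSF11 lie above 0 before adjustment, and for SRSF2 the pair gives -1.32 and the other 4 arrays -0.05.

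The array split ran through the family gene by gene. Relative to the mean of the other arrays of its group, control replicate 2 was 1.21 log2 units higher for SRSF2, 0.67 higher for SRSF4 and 0.66 higher for SRSF1. On the same array SRSF11 (-1.54) and SRSF5 (-0.74) were low. In siSLU7 replicate 1 SRSF11 (-0.92), SRSF3 (-0.80) and SRSF5 (-0.61) were low against the other siSLU7 arrays, and SRSF1 (0.34) was high. SRSF11 and SRSF5 were thus low and SRSF1 high on both of these arrays. SRSF3 was also low on both (-0.34 in control replicate 2), and SRSF9 was high on both (0.27 in siSLU7 replicate 1 and 0.40 in control replicate 2). SRSF2 and SRSF4 departed in control replicate 2 alone (-0.06 each in siSLU7 replicate 1). For 8 of 10 members the difference had the same sign within the pair and within the other 4, SRSF1 and SRSF9 being the exceptions. Opposite signs were seen in 35.5% of all clusters. What sets these arrays apart was not tested.

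**Figure D3:**
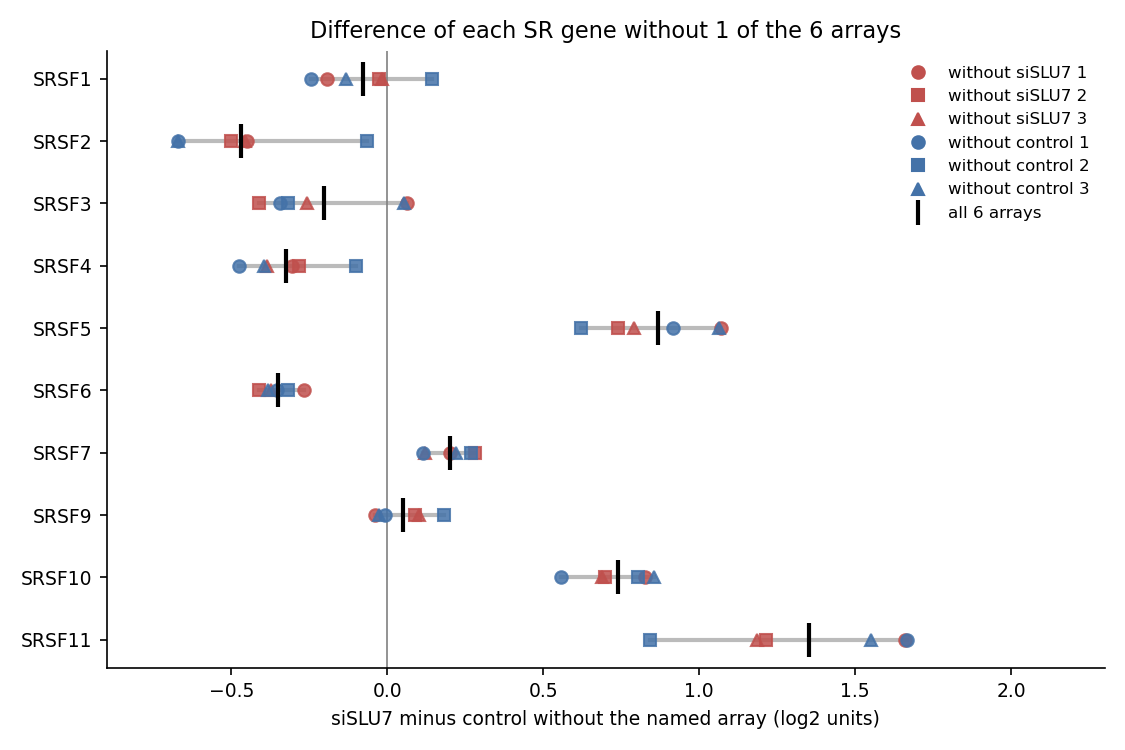
Difference of each SR gene (siSLU7 minus control, log2 units) without each array in turn (symbols, red for a siSLU7 array left out and blue for a control array) and with all 6 arrays (black bars). The range is widest for SRSF11, 0.84 to 1.67, and SRSF1, SRSF3 and SRSF9 cross 0.

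Genes were set against each other in 7 pairs, using the difference between the 2 genes on each array. Of these, 6 pairs were of members and 1 set SRSF10 against TRA2B, which is no member. The pairs were chosen with earlier results known, and SRSF2 and SRSF11, which are not close relatives, had the lowest and the highest difference of the members. The log2 ratio of SRSF5 to SRSF6 was 1.22 higher with siSLU7 (95% interval 0.33 to 2.11), with no overlap between groups. SRSF4 against SRSF5 differed by -1.19 (95% interval -2.61 to 0.23) and SRSF2 against SRSF11 by -1.82 (95% interval -4.49 to 0.85), again without overlap. All 3 reached the smallest p that an exact two-sided permutation test of 3 arrays against 3 allows, p = 0.1, or 0.233 adjusted over the 7 pairs, so the design could not take any pair under 0.05. SRSF1 and SRSF9 showed the narrowest interval, a difference of -0.13 (95% interval -0.46 to 0.20; exact permutation p = 0.4). The same comparison gave -0.40 for SRSF3 against SRSF7 (95% interval -1.53 to 0.72) and 0.03 for SRSF4 against SRSF6 (95% interval -0.60 to 0.65). SRSF10 against TRA2B, an SR-like splicing activator, gave 0.56 (95% interval -0.29 to 1.41; exact permutation p = 0.2).

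Other genes of the pathway were taken from lists of 64 names, of which 56 had a cluster with a single name. No gene of these lists passed the limma test over all clusters either, and 12 were higher and 2 lower at an unadjusted p under 0.05, where 13.1% of all clusters passed in either direction and 6.55% were higher. The groups lay apart for 14 of the 56, against 18.9% of all clusters. SRSF12, named as the only measured gene of its list, differed by 0.12 ± 0.30 log2 units (SE). The 32 SR-related proteins share the arginine- and serine-rich tail or work beside SR proteins. Their median difference was 0.21 log2 units, and 22 were positive (50.5% of all clusters). The groups lay apart for 7 of the 32, against 18.9% of all clusters in either direction. All 7 were higher, as were 9.64% of all clusters, a direction seen only after the fact.

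LUC7L3, a relative of a yeast U1 particle protein, had the widest difference of the SR-related genes. It read 8.47, 9.49 and 9.21 log2 units on the siSLU7 arrays, against 6.81, 5.67 and 7.37 on the control arrays. That is a difference of 2.44 ± 0.46 log2 units (SE), with the groups 1.10 apart and a limma adjusted p of 0.0652. RBM39, a U2AF-like splicing coactivator and the target of aryl sulfonamide degraders, read 9.79, 10.13 and 10.15 with siSLU7, against 8.77, 8.60 and 8.62 with control siRNA (difference 1.36 ± 0.24, SE, limma adjusted p = 0.0568). Both genes were higher within the pair (2.80 for LUC7L3 and 1.19 for RBM39) and within the other 4 arrays (2.26 and 1.45). NKTR, a cyclophilin with an SR-like tail, was 1.34 ± 0.39 log2 units higher (SE, limma adjusted p = 0.176). SON, a scaffold of nuclear speckles, was 0.94 ± 0.26 log2 units higher (SE, limma adjusted p = 0.158), at 8.60, 8.79 and 8.32 with siSLU7, against 7.53, 7.45 and 7.90 with control siRNA.

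Among 11 measured kinases, phosphatases and importers of SR proteins, 8 had a positive and 3 a negative difference, the median was 0.18, and the groups lay apart for 3. Over all clusters 50.5% were positive, the median was 0.004, and 18.9% had groups without overlap. CLK4, a kinase of the SR tail, was 0.58 ± 0.24 log2 units higher and TNPO1, transportin 1, 0.91 ± 0.34 higher (SE each, limma adjusted p = 0.356 and 0.287). Transportin SR (TNPO3) differed by 0.18 ± 0.26, SRPK1 by -0.32 ± 0.28 and CLK2 by 0.28 ± 0.32 (SE each), all with overlapping groups. PPP1CB, a catalytic subunit of protein phosphatase 1, differed by -1.21 ± 0.40 (SE, limma adjusted p = 0.231). The other listed catalytic subunits of this phosphatase, PPP1CA (0.24 ± 0.37) and PPP1CC (0.27 ± 0.26, SE each), had positive differences and overlapping groups.

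In mRNA export, NXF1, the receptor that SR proteins such as SRSF3 and SRSF7 hand mRNA to, read 8.24, 7.80 and 7.70 log2 units on the siSLU7 arrays, against 6.51, 7.22 and 6.54 on the control arrays (difference 1.15 ± 0.30, SE, limma adjusted p = 0.137). POLDIP3, an export adaptor found on spliced mRNA, was 1.17 ± 0.29 higher and THOC6, a subunit of the THO complex, differed by -1.14 ± 0.28 (SE each, limma adjusted p = 0.119 and 0.118). CHTOP, an adaptor that binds the same receptor, also lay apart, by a difference of only 0.16 ± 0.23 (SE). The 12 export genes had a median of -0.16, against 0.004 over all clusters.

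**Figure D4:**
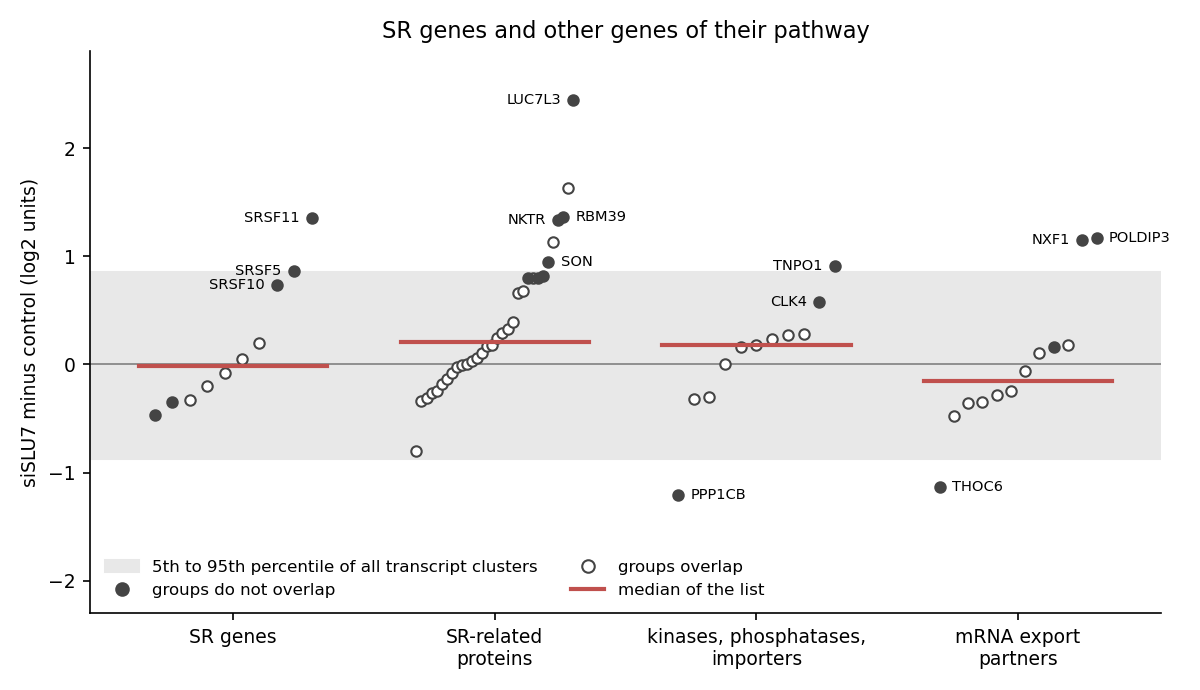
Difference (siSLU7 minus control, log2 units) of each measured gene in 4 lists, with filled points where the groups do not overlap, red lines at the list medians and the grey band from the 5th to the 95th percentile of all clusters (-0.87 to 0.86). LUC7L3 at 2.44 is the highest point, SRSF11 at 1.35 is the highest SR gene, and no point passed the adjusted test.

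Averaged over the 10 members, each centred on its own mean, the profile ran from -0.21 on control replicate 1 to 0.17 on siSLU7 replicates 2 and 3. The named clusters nearest to this profile, by the mean absolute difference over the 6 arrays, were those of AFAP1 (0.035 log2 units), ARHGEF7 (0.047) and MYBPC2 (0.048), from 16276 candidates. The members differed in both directions, so this average stands for no single member.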

How the data were processed

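The 6 RNA samples of PLC/PRF/5 cells (3 siSLU7, 3 control siRNA) were hybridised with a biotin label to 1 array each. The log2 values analysed were deposited by the authors as 1 value per transcript cluster, made per the labels with the core chip definition of aroma.affymetrix and per the submitters' processing notes with RMA, which corrects background, normalizes and summarises probes. The genome build is not given in the sources used here, and probe intensities and detection calls were not used here. Names came from the platform annotation (16287 of 18708 clusters had 1 symbol, 2179 of these updated through RefSeq). The test was limma's moderated test (R 4.3.3, limma 3.58.1; lmFit and eBayes, group as the only term, no filter, Benjamini-Hochberg over all clusters, threshold 0.05). Single values also got an exact two-sided permutation test. Alternatives were a replicate block, the array split as a block, the 4 other arrays, array weights, an intensity trend, a filter on dim clusters, quantile normalization, median centring, the mean of a gene's clusters, a stricter threshold and leaving out each array. Members, lists and alternative settings were chosen with earlier results of these data known. Named genes were all members, SLU7 and the 3 nearest profiles. From each list they were the called genes and up to 4 with the largest difference among those whose groups do not overlap. Outside this rule, TNPO3, SRPK1, CLK2, PPP1CA and PPP1CC were named for comparison.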

Additional observations from a re-analysis of the deposited data

How the results depend on the processing

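The count of SR genes called stayed at 0 under each planned setting other than the array split as a block, where it was 1 (SRSF11). With a replicate block, in the 4 arrays, at an adjusted p under 0.01 and without any 1 array, 0 of all clusters were called. No member could be called there, so neither this count nor the side of the threshold tells about the members in those settings. Apart from the SRSF11 call, the differences of the 10 SR genes kept their direction and side of the threshold in 88 recalculations over all arrays or the 4 arrays. The direction turned in 1 (SRSF1, 0.029 in the 4 arrays). With either block, the dim filter or the trend each difference stayed the same by construction, so only its adjusted p could move. The mean of a gene's clusters could change the difference of SRSF10 alone. Leaving out 1 array is not among these recalculations and turned SRSF1 in 1 fit, SRSF3 in 2 and SRSF9 in 3. Over all clusters, 81 calls became 0 with a replicate block, in the 4 arrays alone, at an adjusted p under 0.01 and without any 1 array (0 to 0; 1833 to 2573 clusters at an unadjusted limma p under 0.05 without 1 array, 1845 with the replicate block and 2922 in the 4 arrays), and 324 without the dimmer clusters, 441 with an intensity trend, 575 with array weights and 783 with the array split as a block. Called pathway genes, 0 at first, became 2 without the dimmer clusters and 2 with the trend (LUC7L3 and RBM39 both times), 5 with array weights (also NXF1, THOC6 and POLDIP3) and 7 with the split as a block (also NKTR and PPP1CB). SLU7 passed at -1.51 in 3 of these settings (limma adjusted p = 0.0411 without the dimmer clusters, 0.033 with the trend, 0.043 with the split) and at -1.61 with array weights (0.0269). Without 1 array the median of the SR genes ran from -0.13 to 0.16, SRSF1 from -0.25 to 0.14, SRSF3 from -0.413 to 0.064 and SRSF9 from -0.040 to 0.18. The SR genes whose groups lay apart, 5 at first, numbered 4 with quantile normalization (19.0% of all clusters), 4 with median centring (18.8%) and 7 in the 4 arrays (46.2%), 3 settings chosen for this count after seeing the data. Deviations of same-numbered arrays correlated at -0.381, -0.314 and 0.141. The arrays that stood apart carry different replicate numbers, so these values cannot settle whether the numbers pair the arrays. With the replicate block 0 members were called, and the SR median of -0.015 could not change, since the design is balanced. Where 1 array was left out the other arrays set the spread, and the cause of these shifts was not tested.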
